A study of Mus musculus with 4 samples.

Results

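The regions described here are the wide hotspots of 3T3-L1 cells, stretches of enriched DNase I cleavage that run for 4000 bp or more. They were chosen by their measured width, the end minus the start of each interval in the biosample 1 hotspot list, on chromosomes 1 to 19, leaving out chromosome 10 from 107 to 119 Mb and chromosome 2 from 77.8 to 78.1 Mb. The rule gave 434 regions out of the 237380 hotspots of that list on the same chromosomes and outside the same segments (0.183%), and out of 247031 hotspots in the whole list. Together they spanned 2248 kb, which was 2.16% of the summed hotspot length. Width and what follows from it directly are therefore given below as description.

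3T3-L1 is an immortalized line of mouse embryo fibroblasts, labelled as strain C57BL/6J, that is widely used because its cells can turn into fat cells, and no treatment is named in the labels. In DNase-seq the enzyme DNase I cuts DNA that is not protected by nucleosomes and the cut ends are sequenced. Both biosamples are represented by a pair of technical libraries (4 libraries in all) that were pooled into 1 list of peaks and 1 list of hotspots per biosample. The biosample 1 lists held 298793 peaks, each a window of at most 150 bp, and 247031 hotspots; those of biosample 2 held 97430 and 88636. The read depth behind them is unknown. As a single pooled list per biosample leaves no spread between replicates, no test was run, and all 95% Wilson intervals cover counting error only, over regions or peaks that are not replicates. Whether the biosamples were separate cultures is not stated in the sources used here, so differences between them may be technical. The fibroblast label was checked against the marker genes, and all 11 fibroblast markers (Col1a1, Col1a2, Col3a1, Vim, Thy1, Pdgfra, Pdgfrb, Fn1, S100a4, Twist1 and Prrx1) had a peak at most 1000 bp from a start site in each list, against 6 of 24 markers of other cell types (Snap25, Rbfox3, Afp, Pecam1, Cdh5 and Ckm).

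Most accessible elements are narrow gaps between nucleosomes at a promoter or an enhancer. A hotspot caller joins neighbouring cleavage into 1 region, so a wide hotspot generally holds several elements close together, such as a promoter, the first part of the gene body and enhancers beside them. Wide accessible regions are known from many cell types at promoters rich in CpG dinucleotides, at genes of rapid response and at regulators of cell identity. In a fibroblast these include genes of the extracellular matrix, of growth factor signalling and of the AP-1 proteins, the Fos and Jun dimers that bind many fibroblast enhancers.

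Sequences of peaks inside the widest of these regions are shown first, since the results below turn on which elements the regions hold. The next 4 are, in order of the width of the region, the strongest biosample 1 peak that met a biosample 2 peak, met no annotated exon and held an AP-1 match (TGACTCA or its reverse complement TGAGTCA). They are written on the plus strand of mm10 with the AP-1 match in capitals.
Kdm6b region, chr11:69410416-69410565: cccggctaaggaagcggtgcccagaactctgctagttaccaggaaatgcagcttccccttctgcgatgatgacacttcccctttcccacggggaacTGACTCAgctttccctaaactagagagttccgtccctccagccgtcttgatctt
Fgf7 region, chr2:126031276-126031425: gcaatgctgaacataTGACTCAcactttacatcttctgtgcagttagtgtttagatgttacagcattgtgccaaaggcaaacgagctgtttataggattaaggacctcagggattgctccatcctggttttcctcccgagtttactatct
Pfn1 and Rnf167 region, chr11:70651536-70651685: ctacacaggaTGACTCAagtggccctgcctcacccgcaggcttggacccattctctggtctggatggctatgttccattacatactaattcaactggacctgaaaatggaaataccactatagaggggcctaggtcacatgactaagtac
Lncpint region, chr6:31088576-31088725: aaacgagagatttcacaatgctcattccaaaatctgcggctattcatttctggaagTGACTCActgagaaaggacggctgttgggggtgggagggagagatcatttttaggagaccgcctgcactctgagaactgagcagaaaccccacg
These peaks scored 133, 145, 133 and 147 in biosample 1, where the highest score of the list was 150, and the biosample 2 peaks that met them scored 49, 86, 66 and 89. Peak scores are the authors' own, are not defined in the sources used here, and are read only within a list. The next 2 were chosen in the same way for a ratio of observed to expected CpG of at least 0.6, with each CpG in capitals.
Kdm6b region, chr11:69411236-69411385: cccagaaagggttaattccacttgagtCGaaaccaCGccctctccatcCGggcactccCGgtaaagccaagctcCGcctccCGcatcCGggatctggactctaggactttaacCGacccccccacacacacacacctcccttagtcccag
Fgf7 region, chr2:126034456-126034605: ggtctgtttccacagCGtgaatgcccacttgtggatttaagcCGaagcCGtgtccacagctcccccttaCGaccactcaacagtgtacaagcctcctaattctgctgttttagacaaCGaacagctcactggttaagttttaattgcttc
The peak of the Kdm6b region held 8 CpG in 150 bp with a ratio of 0.717 and scored 140, and the peak of the Fgf7 region held 5 with a ratio of 0.601, scored 142 and lay 53 bp from a start site of Fgf7. The Kdm6b and Fgf7 regions thus held strong peaks of both kinds, with the AP-1 peak 3110 and 3233 bp from the nearest protein-coding start site.

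Among the widest regions were those of a collagen, a chromatin regulator and a growth factor. The widest of all, 14243 bp on chromosome 6 (4529638 to 4543880, mm10), covered the 3′ part of Col1a2, which encodes a chain of type I collagen. It took in 11907 bp of the 36731 bp gene and 2336 bp past its end, and its nearest start site of a protein-coding transcript was 24145 bp away. It held 29 biosample 1 peaks, the most of any region, with scores between 56 and 121 and a median of 72, and no peak and no hotspot of biosample 2. The next, 12673 bp on chromosome 11 (69408327 to 69420999), held the 5′ part of Kdm6b, a histone demethylase that removes a Polycomb methyl mark. It had 24 biosample 1 peaks and 23 biosample 2 peaks, and 82.3% of its length was covered by biosample 2 hotspots. The 2 widest regions thus differed widely in their cover by biosample 2.

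Fgf7, a growth factor that mesenchymal cells secrete, had a region of 12243 bp on chromosome 2 (126030278 to 126042520) with 23 biosample 1 and 9 biosample 2 peaks, 22.4% covered. At Tnrc18 the region of 12080 bp on chromosome 5 had 21 and 8 peaks and was 29.2% covered. The fifth, of 11672 bp on chromosome 9 (41584700 to 41596371), lay wholly within the long noncoding genes 3110039I08Rik and Gm49317, 378216 bp from the nearest protein-coding start site, that of Sorl1, and had 23 peaks in biosample 1 and 3 in biosample 2. The sixth, of 10883 bp on chromosome 11, held all of Pfn1, which encodes the actin-binding protein profilin, and all of Rnf167, a ubiquitin ligase, and 7.54% of it was covered. Such low cover stood beside high cover at similar width: the region of 10719 bp between Rhof and Setd1b, a histone methyltransferase, was 74.8% covered.

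The other 5 of the 12 widest were at Lncpint (10489 bp), a long noncoding RNA gene known as a p53 target, Amotl2 (10404 bp), an angiomotin that binds the Hippo effector YAP, Tsc22d2 (9829 bp), Hes1 (9483 bp), a repressor downstream of Notch, and Zfp516 (9302 bp), a zinc finger factor known for its role in brown fat. Hes1 was 95.03% covered by biosample 2 hotspots and held 15 biosample 1 peaks with scores of 106 to 149 and 19 biosample 2 peaks with scores of 14 to 97. Tsc22d2 was 4.49% covered, with 16 biosample 1 peaks and 1 biosample 2 peak. The 6 regions with the most biosample 1 peaks were all among the 7 widest, with 21 to 29 peaks each.

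**Figure D1:**
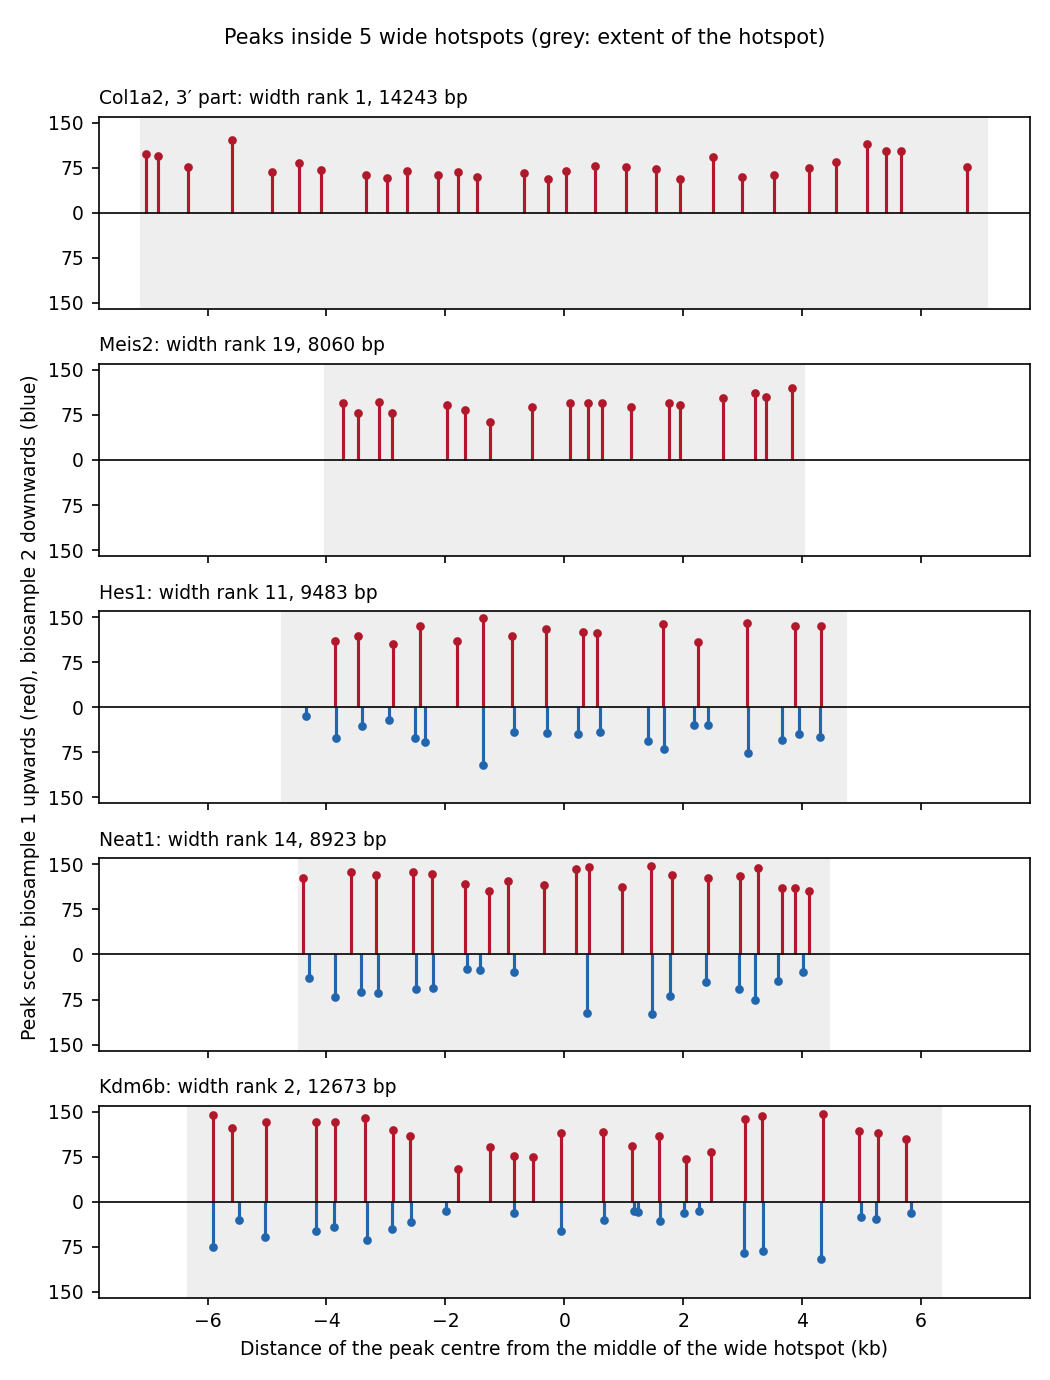
Peaks inside 5 wide hotspots, each drawn at its distance from the middle of the region (kb), with the biosample 1 score upwards in red and the biosample 2 score downwards in blue; grey marks the extent of the region, and the scales of the lists are not comparable. The regions at the 3′ part of Col1a2 and at Meis2 held 29 and 18 biosample 1 peaks and no biosample 2 peak, while those at Hes1, Neat1 and Kdm6b held 15, 20 and 24 biosample 1 peaks and 19, 17 and 23 biosample 2 peaks.

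Most of the wide hotspots lay at promoters. Of the 434, 360 had a start site of a protein-coding gene inside or at most 1000 bp away (82.9%, interval 79.1 to 86.2), against 69.1% (67.9 to 70.3) of the 5416 hotspots of 2000 bp to under 4000 bp and 11.6% of all 237380. Of the others 50 were intergenic, 16 were in introns and 8 met an exon away from promoters. These places refer to protein-coding genes alone. Intergenic regions here met no protein-coding gene, and some of them lay in noncoding genes, such as those at 3110039I08Rik and Lncpint. A wider interval has more chances to come near a start site, and this part of the difference was not tested. When start sites of protein-coding transcripts alone were used, the numbers were 354 of the 434 (81.6%) and 9.31% of all hotspots, and with the annotated gene start alone they were 301 (69.4%) and 7.17%. The region at the 3′ part of Col1a2 was among the 6 that rested on the start of a noncoding transcript of a protein-coding gene.

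The regions had more CpG than hotspots at large, though no more than the next narrower class. Their median ratio of observed to expected CpG was 0.520, against 0.544 in hotspots of 2000 bp to under 4000 bp and 0.174 in all. A ratio of at least 0.6 was met by 152 of the 434 (35.0%, 30.7 to 39.6), by 40.9% of the next class and by 4.86% of all hotspots. Of the 152, 148 were at promoters. The regions at promoters had a median ratio of 0.555, and the 74 elsewhere had 0.229. Among the 12 widest the ratio ran between 0.220 at 3110039I08Rik and 0.682 at Tsc22d2.

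Where exactly 1 protein-coding gene start lay inside, the region reached further into the gene than before it. There were 249 such regions, with a median of 1626 bp upstream and 3148 bp downstream of the start, and the downstream side was the longer in 190 of them (76.3%, 70.6 to 81.2). In hotspots of 2000 bp to under 4000 bp it was longer in 78.1% of 2605, and in all hotspots in 65.1% of 8283, so the share was close to that of the next class. At Kdm6b the upstream side was the longer, with 7324 bp before the gene start and 5349 bp inside the gene. The Amotl2 region held no gene start and is not one of the 249. All its 10404 bp lay within the gene, 62.1% of the gene length.

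A whole protein-coding gene lay inside 21 of the regions (4.84%, 3.19 to 7.28), against 0.702% of hotspots of 2000 bp to under 4000 bp and 0.0333% of all, and a wide region has more room for one. These genes included Hes1, Junb, an AP-1 subunit, Ier2, an immediate early gene, Id1 and Id3, inhibitors of helix-loop-helix factors and BMP targets, Socs1, an inhibitor of cytokine signalling, Gadd45b and Gadd45g, stress-induced regulators of growth arrest, and Atf4 and Ddit4 of the stress response. Dlx2 and Hoxa2, homeobox genes, Cited2, a transcriptional cofactor, and Gpx1, a glutathione peroxidase, were also covered whole. So were Hist1h1b, Fam89b, Nanos1, Inka1, Hcfc1r1, Tnfrsf12a and Trappc1. Only a gene shorter than its region can lie whole inside, so short genes are favoured, and the part of gene length was not tested. Junb lay in a region of 7711 bp with 13 biosample 1 and 6 biosample 2 peaks, and Ier2 in a region of 4040 bp with 6 and 6.

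**Figure D2:**
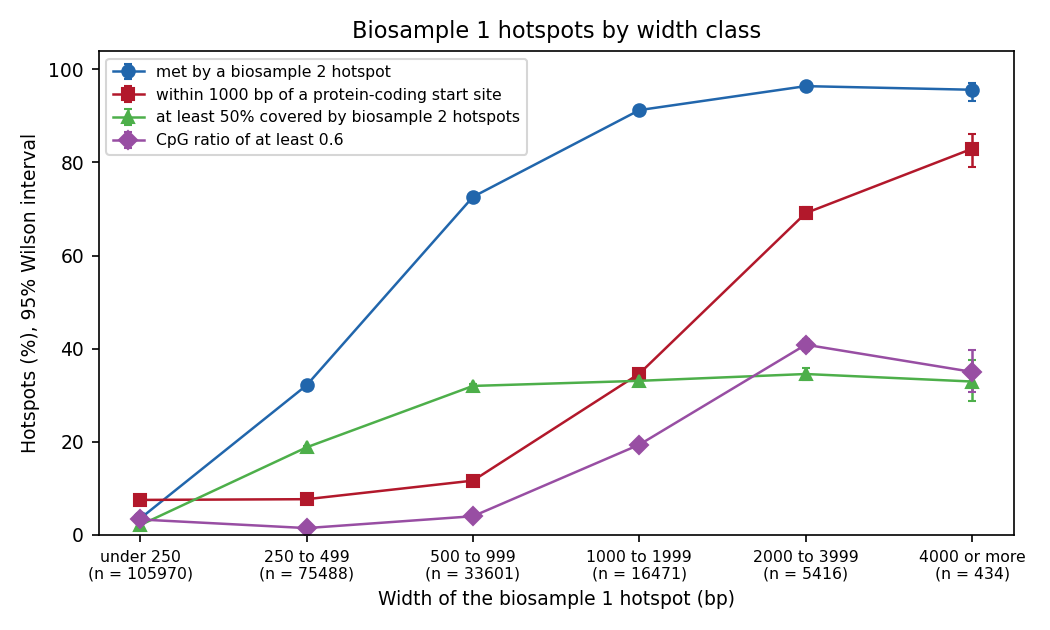
Share of biosample 1 hotspots (%) in 6 classes of width (bp) that a biosample 2 hotspot met, that had a protein-coding start site at most 1000 bp away, that biosample 2 hotspots covered by at least 50%, or that had a CpG ratio of at least 0.6, with 95% Wilson intervals. The promoter share was 82.9% at 4000 bp or more and 69.1% at 2000 bp to under 4000 bp, while the shares met by biosample 2 were 95.6% and 96.4%.

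Biosample 2 had accessible DNA in nearly all of the wide hotspots, but in shorter pieces. The shorter pieces were largely set in advance, since the regions were chosen for width in the list of the other biosample. That list was also the longer. A biosample 2 hotspot met 415 of the 434 (95.6%, 93.3 to 97.2), against 96.4% (95.9 to 96.9) of hotspots of 2000 bp to under 4000 bp and 30.8% of all. The last comparison is limited by width, since a wide interval has more room to be met. The share met was 3.54% in hotspots under 250 bp and 72.6% in those of 500 bp to under 1000 bp. The part of width in the difference from all hotspots was not tested. The median region was met by 3 biosample 2 hotspots and had 36.6% of its length covered by them (quartiles 17.6 and 61.0%), against 39.8% in the next class and 39.0% in hotspots of 1000 bp to under 2000 bp. At least 50% was covered in 143 regions (32.9%, 28.7 to 37.5), against 34.6% of the next class and 14.6% of all hotspots. In hotspots of 1000 bp to under 2000 bp the share met was 91.3% (90.8 to 91.7) and the share covered by at least 50% was 33.1%. The share met was thus lower in that class than in the next wider one, with intervals that do not overlap, while the wide hotspots and the class next to them had overlapping intervals for both shares.

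The 6 regions covered most by biosample 2 were those of Ctps (97.3%), which makes the nucleotide CTP, En1 (96.1%), a homeobox gene, Flnc (95.6%), which encodes a filamin that binds actin, Sgk1 (95.5%), a kinase induced by serum and glucocorticoids, Hes1 (95.03%) and E2f3 (94.7%), a cell cycle factor. In all, 16 regions were covered by at least 90%. Biosample 2 had 8 hotspots of 4000 bp or more of its own on these chromosomes outside the left-out segments, and all 8 met one of the 434 regions. They lay at Hes1 (7837 bp), Pcdh7, a protocadherin (4544 bp), Fat1, an atypical cadherin (4520 bp), Sgk1 (4443 bp), Flnc (4309 bp) and Ssbp4 (4065 bp), beside Gm37419 (4042 bp) and 15346 bp from the start of Nanos3 (4182 bp). A wide biosample 2 hotspot was thus always at a place that was wide in biosample 1 as well, though only 8 of the 434 were wide in both.

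**Figure D3:**
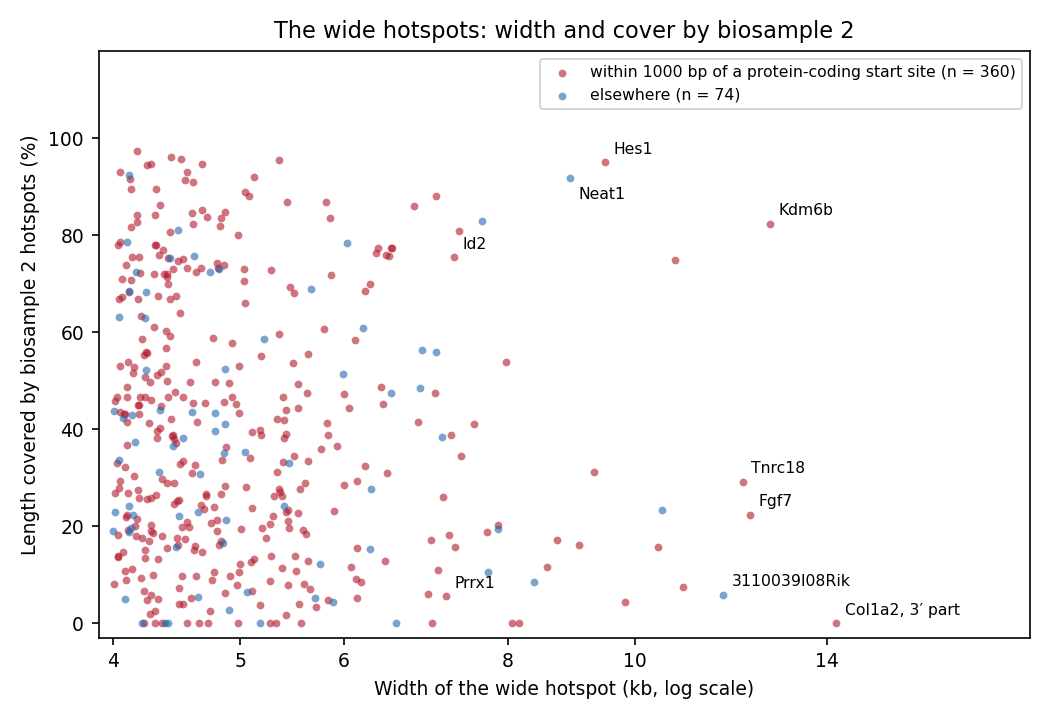
Width of each of the 434 wide hotspots (kb, log scale) and the share of its length that biosample 2 hotspots covered (%), for 360 regions at promoters and 74 elsewhere. Cover ran between 0 and 97.3%, and among the widest it was 0% at the 3′ part of Col1a2, 82.3% at Kdm6b and 95.03% at Hes1.

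No biosample 2 hotspot met 19 of the regions, and none of these held a biosample 2 peak. The 6 widest were at the 3′ part of Col1a2, at Lrrc37a (8164 bp), at Meis2 (8060 bp), a homeobox gene, beside Cxcl2 (7005 bp), a chemokine gene, 41226 bp from a start site of 1700123K08Rik (6578 bp) and at Nrp2 (5559 bp), a receptor for semaphorins. Others were at Fosl1, an AP-1 subunit, Smad7, an inhibitor of TGF-beta signalling, Meis1, Zfhx4, Ikzf2 and Slit2, a guidance ligand. Their strongest biosample 1 peaks were below those of the other regions: the highest score per region ran between 27 and 129 with a median of 114, against 100 to 150 with a median of 142 in the 415 regions that biosample 2 met. In 3 of the 19, and in none of the 415, the strongest peak was below the median of the biosample 1 list.

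The surroundings of the 19 regions differed in how many biosample 2 hotspots they held. Within 250 kb there were 4 to 66 (median 29), against a median of 37 around all 434 regions, and the nearest was 167 to 48553 bp away (median 2576 bp). Biosample 1 hotspots within 250 kb were fewer as well, with a median of 81 around the 19 regions and 94.5 around all 434. The fewest were around the region by Vmn1r27, with 21 biosample 1 and 4 biosample 2 hotspots and the nearest of biosample 2 at 48553 bp. Around Zfhx4 there were 58 and 10, around Slit2 56 and 16, around Ifi202b 199 and 24, and around the region by 1700123K08Rik 103 and 24. Others had more of them nearby. Within 250 kb of the Col1a2 region there were 78 biosample 1 and 41 biosample 2 hotspots, and the nearest of biosample 2 was 1966 bp away. Around the Meis2 region there were 55 and 30, and around Fosl1 132 and 66, with the nearest biosample 2 hotspot 167 bp from the Fosl1 region. The promoter region of Col1a2 itself, 20473 bp from the wide one (4099 bp, chromosome 6, 4505066 to 4509164), held 5 peaks in each list and was 41.5% covered. Col1a2 thus had no cover by biosample 2 over its 3′ part and had some at its promoter.

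Scores differed among the 19. In the Lrrc37a region all 17 peaks scored between 12 and 27, in the lowest 2.19% of the list, and in the region by 1700123K08Rik all 12 scored between 17 and 32. The region by Cxcl2 had a median of 35 and a highest score of 112. At Meis2, Nrp2 and Fosl1 the strongest peaks scored 119, 129 and 128. The region by Vmn1r27 had a highest score of 68. Over the 19 regions 5.22 to 26.0% of bases were soft-masked (median 14.8%, against 11.9% for all 434). Of the 31-base words, 0 to 5.92% occurred more than once on the assembled chromosomes, within the region or outside it (median 1.12%, against 0.528%). The region by Vmn1r27 had the 5.92% and that by Cxcl2 the 26.0%, while Lrrc37a had 8.98% soft-masked bases and 1.5% repeated words and the region by 1700123K08Rik 13.6% and 0%. The part of repeats in the missing cover was not tested.

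The wide hotspots held 3873 biosample 1 peaks and 2187 biosample 2 peaks, a median of 8 (4 to 29) and 5 (0 to 23) per region. Biosample 1 had more peaks in 351 regions, biosample 2 in 51, and 32 had equal numbers. This order was largely set in advance, since the regions were chosen for width in the biosample 1 list. That list was also the longer, with 286696 peaks against 93747 in biosample 2 on the same chromosomes outside the left-out segments. Per kb the median was 1.71 biosample 1 peaks, against 1.61 in hotspots of 2000 bp to under 4000 bp. A biosample 2 peak met 47.4% (45.8 to 48.9) of the biosample 1 peaks inside, against 30.5% of all 286696. Of the biosample 2 peaks inside, 85.6% (84.1 to 87.0) met a biosample 1 peak, against 93.6% of all.

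Taken at like scores, however, the peaks inside were met less often than peaks at large. The median peak inside was at the 81.2 percentile of the biosample 1 scores, against 50.2 for all. Among distal peaks, those over 1000 bp from a protein-coding start site, 52.9% (48.9 to 56.9) of those inside between the 75 and 90 percentile met a biosample 2 peak, against 81.0% (80.6 to 81.4) of all in that band. Between the 50 and 75 percentile the shares were 10.9% (8.72 to 13.6) and 30.9% (30.5 to 31.3), and above the 90 percentile 90.8% (88.0 to 93.0) and 97.5% (97.2 to 97.7). The share was lower inside the wide hotspots in each of the 4 bands, and the higher share over all scores went with their higher scores.

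AP-1 matches were less common in these peaks than elsewhere. Of the 2065 distal peaks inside, 195 held one (9.44%, 8.26 to 10.8), against 20.2% of all 241741 distal peaks of the list. Above the 90 percentile of the score 18.5% (15.4 to 22.1) inside and 37.6% (36.9 to 38.3) of all had a match, and between the 75 and 90 percentile 9.85% (7.71 to 12.5) and 25.8% (25.4 to 26.3). Among distal peaks that met a biosample 2 peak the shares were 15.2% (13.0 to 17.8) and 27.6% (27.3 to 27.9). AP-1 peaks such as those printed above for Kdm6b, Fgf7, Pfn1 and Lncpint were therefore a minority, although matches rose with the score inside the regions as they did outside. A match describes the letters of a window and is not a bound site.

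Of the other 11 motifs searched, 6 had a lower share inside with an interval below the share of all. TEAD, the DNA-binding partners of YAP (CATTCCA or CATTCCT; all motifs were searched on both strands), matched 7.99% (6.90 to 9.24) of the distal peaks inside and 10.9% of all. RUNX (TGTGGTTA or TGTGGTTT) matched 2.62% (2.01 to 3.40) and 4.45%, and CTCF, the insulator factor, 1.31% (0.900 to 1.90) and 4.03%. C/EBP (TTGCNNAA) matched 6.44% (5.46 to 7.58) and 7.85%, the partial site of nuclear factor I (TTGGCA) 9.69% (8.48 to 11.04) and 13.6%, and the E-box of helix-loop-helix factors (CACCTG or CAGCTG) 15.5% (14.0 to 17.1) and 18.2%. Shares were higher inside for 3 motifs. SP/KLF (GGGCGGGG), typical of promoters, matched 3.34% (2.65 to 4.21) inside and 0.94% of all, SRF, the serum response factor, 1.40% (0.980 to 2.01) and 0.75%, and CRE of the CREB and ATF proteins (TGACGTCA) 0.533% (0.298 to 0.951) and 0.242%. For ETS (CCGGAAGT), at 0.194% (0.0754 to 0.497) and 0.199%, and for NRF1, at 0.0969% (0.0266 to 0.352) and 0.0393%, the interval held the share of all. The distal peaks inside had more G and C, with a median of 50% against 47.3%. Peaks inside also scored higher, as given above, and most of the regions lay at promoters. The parts of base composition, score and closeness to start sites in the shares of these 11 motifs were not tested.

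**Figure D4:**
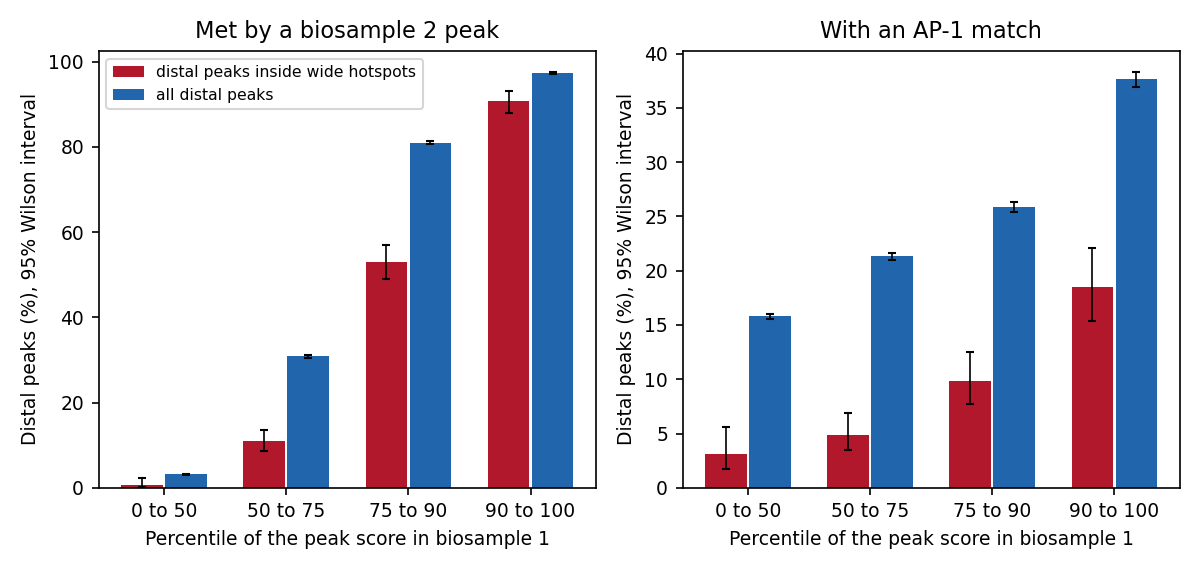
Distal biosample 1 peaks (%) in 4 bands of the score percentile that met a biosample 2 peak (left) or held an AP-1 match (right), for peaks inside the wide hotspots and for all distal peaks, with 95% Wilson intervals. Between the 75 and 90 percentile the values inside were 52.9% and 9.85%, and over all distal peaks they were 81.0% and 25.8%.

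Among the gene lists, those of rapid response and growth signalling had the largest shares met by a wide hotspot. Of 20707 protein-coding gene symbols on these chromosomes, 434 (2.1%) were met (the number equals that of the regions by coincidence). The values of the lists of protein-coding genes are read beside that. The lists were written from textbook knowledge with earlier results of these data known, genes of different length have different chances to be met, and no list was tested. AP-1 and immediate early genes were met in 9 of 24 cases (37.5%, 21.2 to 57.3). The AP-1 subunits were Jun (5331 bp, 31.3% covered by biosample 2), Junb (7711 bp, 18.9%), Fosl2 (4989 bp, 43.3%) and Fosl1 (5323 bp, 0%). Mafk, a small Maf factor that pairs with other leucine zipper proteins, had 7864 bp, Myc 6469 bp and Klf10, a TGF-beta early gene, 5634 bp. Zfp36, which destabilises messenger RNAs, had 4771 bp. Fosl1 alone of the 9 was without a biosample 2 peak.

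Growth factor receptors and feedback genes were met in 8 of 22 cases (36.4%, 19.7 to 57.0). Both receptors of platelet-derived growth factor were among them. The region at Pdgfra (5431 bp) was 86.8% covered by biosample 2 and held 11 and 10 peaks, and that at Pdgfrb (4154 bp) was 20.1% covered and held 7 and 2. Igf1r, the receptor of insulin-like growth factor, had a region of 4267 bp with 10 biosample 1 peaks and 1 biosample 2 peak. The feedback genes were Spry2, an inhibitor of receptor kinase signalling (7339 bp, 13 and 16 peaks), and Dusp4, Dusp5 and Dusp6, phosphatases of MAP kinases (4436, 4707 and 5119 bp). Fgf7 was described above.

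TGF-beta and BMP pathway genes were met in 7 of 20 cases (35.0%, 18.1 to 56.7). The inhibitory Smads were both there: Smad6 (7238 bp) was 38.8% covered and Smad7 (4722 bp) had no cover. Id2 (7277 bp), a target of BMP signalling, had 14 peaks in each list and was 75.4% covered, while Id1 (5366 bp) and Id3 (4752 bp) were 27% and 20.7% covered. Inhba, which encodes the ligand subunit of activin A, was met by a pair of regions of 5597 and 4903 bp, 8.04% and 2.73% covered. Tgif1, a corepressor of the pathway, had 7044 bp and 47.5% cover.

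Of the fibroblast and matrix genes 8 of 30 were met (26.7%, 14.2 to 44.4): Col1a2, Thbs1, Col4a1 and Col4a2 at their shared region, Vim, Col5a1, S100a6 and Postn. Thbs1, the matricellular protein thrombospondin, had 5531 bp and 49.3% cover, and Col5a1, a minor fibrillar collagen, 4369 bp and 77.0%. Vim, the intermediate filament vimentin, had 4772 bp with 10 biosample 1 and 2 biosample 2 peaks. At Postn, which encodes periostin, 3757 of the 4168 bp lay before the gene start. Mesenchymal transcription factors were met in 7 of 30 cases (23.3%, 11.8 to 40.9): Hmga2 (9059 bp), Prrx1 (7178 bp), Runx1 with 2 regions of 6136 and 6128 bp, Snai1, Tcf4, Glis3 and Ets1. Prrx1, a homeobox factor of limb mesenchyme, had 15 biosample 1 and 2 biosample 2 peaks and was 5.66% covered, and Glis3 (4299 bp) was 72.0% covered. Cover by biosample 2 thus differed widely within each of these lists.

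Hippo pathway genes and targets were met in 4 of 19 cases (21.1%, 8.51 to 43.3): Amotl2, Ccn1, a matricellular YAP target (6512 bp, 77.4% covered), Ajuba, a LIM protein, and Axl, a receptor kinase. The last of these regions met only 60 bp at the 3′ end of Axl, and its other 4328 bp lay past the gene. Actin cytoskeleton genes were met in 3 of 22 (Srf, Actn1 and Tagln2), stress genes in 3 of 14 (Atf4, Ddit4 and Ddit3), cell cycle genes in 2 of 18 (Ccnd2 and E2f1) and housekeeping genes in 1 of 15 (Gapdh). None of the 22 adipogenic transcription factors was met (0 to 14.9%), and of 21 genes of mature adipocytes 1 was met, Lpl, which encodes lipoprotein lipase. The Lpl region (5037 bp) held 9 peaks in each list, of which 8 of biosample 1 were met by biosample 2, and was 72.9% covered. None of the 72 genes of neurons, blood cells, hepatocytes, epithelium, endothelium and skeletal muscle was met (0 to 5.07%). The intervals of both adipocyte lists and of these 72 genes hold the 2.1% of all protein-coding genes. Their low shares therefore do not set them apart from genes at large.

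**Figure D5:**
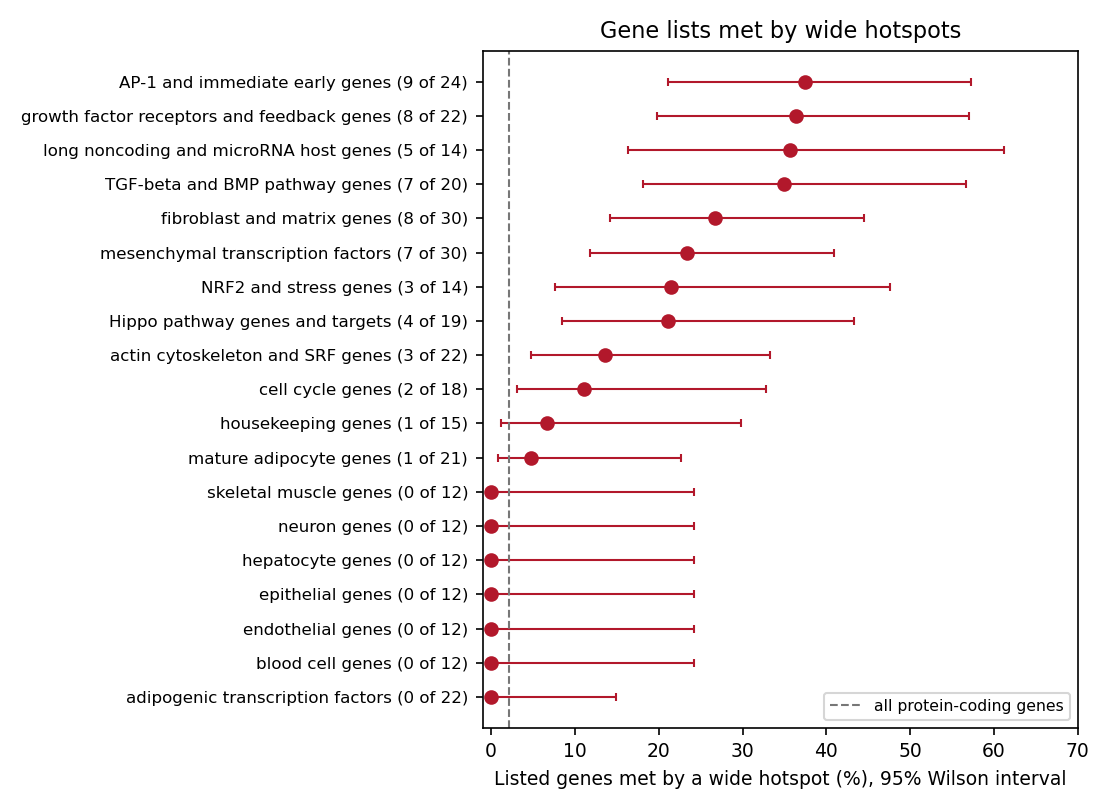
Share of each gene list (%) whose gene bodies a wide hotspot met, with 95% Wilson intervals, and the share of all protein-coding genes as a dashed line at 2.1%. The line does not apply to the list of long noncoding and microRNA host genes. AP-1 and immediate early genes had 9 of 24, and adipogenic transcription factors had 0 of 22, with an interval that holds the dashed line.

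Long noncoding genes were met by 123 of the 434 regions (28.3%, 24.3 to 32.8), against 17.1% (16.1 to 18.1) of hotspots of 2000 bp to under 4000 bp and 9.49% of all. A wider interval meets more genes, and its part in this share and in that of microRNA genes was not tested. Of the 14 annotated genes of a list of long noncoding and microRNA host genes, 5 were met (35.7%, 16.3 to 61.2): Neat1, Mir22hg, Gas5, Dnm3os and Malat1. The share met of all long noncoding genes was not computed, so this list has no share of its own kind to be read beside. Neat1, whose RNA builds the paraspeckles of the nucleus, had 2 regions 2 bp apart on chromosome 19, of 8923 and 6028 bp. The first, which runs over the Neat1 start site, held 20 biosample 1 peaks with scores of 105 to 148 and 17 biosample 2 peaks with scores of 24 to 99, and the second held 12 and 17 peaks. They were 91.7% and 78.4% covered. Malat1, a nuclear RNA encoded beside Neat1, had a region of 4872 bp with 9 and 11 peaks, and Gas5, a host of small nucleolar RNAs, one of 5515 bp with 9 and 1.

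MicroRNA genes lay in 12 regions (2.76%, 1.59 to 4.77), against 1.35% (1.07 to 1.69) of the next class, whose interval overlaps, and 0.109% of all hotspots. RefSeq (GRCm38.p6) gave 23 mature sequences wholly inside the regions. The 5 below are shown because a seed recurs among them and because the regions that hold them are described next; the seed, bases 2 to 8, is in capitals.
miR-199a-3p, chr1:162217883-162217904, plus strand: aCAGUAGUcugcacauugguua
miR-199b-3p, chr2:32318524-32318545, plus strand: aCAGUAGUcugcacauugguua
miR-214-3p, chr1:162223438-162223459, plus strand: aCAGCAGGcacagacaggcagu
miR-22-3p, chr11:75463772-75463793, plus strand: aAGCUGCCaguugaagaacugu
let-7i-5p, chr10:122985698-122985719, minus strand: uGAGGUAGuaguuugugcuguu
MiR-199a-3p and miR-199b-3p have the same mature sequence and lie on different chromosomes, and both of their genes were inside wide hotspots. Among the 23 mature sequences this was the only seed that occurred more than once. Dnm3os, the antisense transcript that carries miR-199a and miR-214, was met by 2 regions 9 bp apart of 5218 and 4596 bp, which were 58.7% and 43.5% covered. The region of 5815 bp at Mir22hg, the host of miR-22, held 10 biosample 1 and 8 biosample 2 peaks and was 86.9% covered. The gene of miR-199b lay in a region of 5276 bp with 10 and 8 peaks, 72.8% covered. Let-7i lay in a region of 4741 bp with 8 and 11 peaks, 72.3% covered.

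Some wide hotspots were neighbours. There were 29 pairs of adjoining regions at most 50000 bp apart, 10 at most 2000 bp apart and 6 at most 100 bp apart, so that these 6 pairs are nearly continuous. Rara, a retinoic acid receptor, had 4 regions of 5266, 4641, 4232 and 4093 bp, with 2, 1, 3 and 2 biosample 2 peaks and cover of 5.39 to 13.4%. Meis2 had 3 at or beside it, of 8060, 6880 and 4223 bp, the second outside the gene and 1798 bp from a start site. The first and the third, 24 bp apart, had no biosample 2 peak, while the one of 6880 bp, 3345 bp further on, had 15 biosample 1 and 14 biosample 2 peaks and was 56.3% covered. Zfhx4, a zinc finger homeobox gene, had 3 at or beside it as well (5699, 4983 and 4246 bp), with 1, 0 and 1 biosample 2 peaks.

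Hotspots lay close to the minimum of 4000 bp on both sides. The 4 nearest on each side are given as description, since 4 are too few for a comparison of their places. The 4 narrowest regions inside had 4000 bp (61151 bp from a start site of Ak4), 4007 bp (at Il1rl1), 4008 bp (34574 bp from Cdk14) and 4010 bp (11779 bp from Ets1, within the gene), with 6 to 9 biosample 1 peaks and cover of 8.01 to 43.7%. The widest left out was 1 bp short of the minimum (35978 bp from Gm10322), and the next were, at 3997 bp each, those at Dlg4, Bzw2 and Ahdc1, with 5 to 8 biosample 1 peaks and cover of 1.40 to 75.6%. Repeats made up little of the 434 regions. The highest soft-masked share was 29.6%, and the highest share of 31-base words that occurred more than once on the assembled chromosomes was 6.95%. Regions with high soft-masked shares lay at Phf21a, at Zfp827 and by Hspa1b, and the most repeated words were by Tapt1, by Vmn1r27, by Hspa1b and by Zfp52.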

How the data were processed

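Per the labels, DNase-seq was done on 3T3-L1 cells. The authors deposited, in mm10 coordinates, 1 peak list and 1 hotspot list per biosample, pooled over its 2 technical libraries; caller, version and filters are not given in the sources used here. Each peak carries a whole-number score of at most 150, deposited by the authors with no definition. Each hotspot carries a −log10 q value that the authors deposited, which ends at 100 and is 100 for all 434 wide hotspots. The value was also 100 for 5406 of the 5416 hotspots of 2000 bp to under 4000 bp and for 116852 of all 237380. It therefore does not set the wide hotspots apart. No read counts were used and depth is unknown.

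From these lists the wide hotspots were selected and intersected with GENCODE M21 and with the biosample 2 lists (overlap of at least 1 bp). Base content, soft-masked bases, 31-base words and motifs (12 searched, both strands) were read from GRCm38.p6, whose chromosome lengths fit the files. Promoter means at most 1000 bp from any transcript start of a protein-coding gene, distal means farther away, and a gene is met where its body is overlapped. Python 3.11.15, numpy 2.4.6, pandas 2.3.3, scipy 1.17.1, pysam 0.24.0 and matplotlib 3.10.9 were used, and the interval code was checked on simulated intervals. The regions, lists and tests were chosen with earlier results of these data known. Regions were named by rule: the 12 widest, the 6 with the most peaks, the 6 most covered, the 6 widest not met, the 4 on each side of the minimum, the 4 most soft-masked and the 4 with most repeated words, up to 4 genes with the most regions, and up to 4 genes per list. Whole genes, neighbouring pairs, noncoding genes, the biosample 2 regions and further list genes were named after their values were seen. Some regions that the rule names are not reported here. Alternatives tried were other width minimums, joining of neighbours, other overlaps, stronger peaks, other start site definitions, other motif windows, a limit on soft-masked bases and the left-out segments. Leaving out a library was not possible with pooled lists. No column of other samples was present (0).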

Additional observations from a re-analysis of the deposited data

Results flagged for a closer look

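Biosample 1 hotspots of 4000 bp or more also lay outside the regions described. In the left-out segments there were 30, a signal in data that no comparison above uses. The segment of chromosome 10 held 21 of its 1483 hotspots (1.42%), of which biosample 2 met 13 and 6 were at promoters, with Cpm, Cpsf6, Dyrk2, Lin7a, Mdm2 and Nup107 the nearest genes. The segment of chromosome 2 held 9 of 82 (11%) near Cwc22, of which 7 were met. On chromosome X there were 6 of 7520 (0.0798%), at or near Mid1ip1, Med14, Bcorl1, Bcap31, Pcdh19 and Tmsb4x, and biosample 2 met all 6, with a median of 14.5% of their length covered.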

How the results depend on the processing

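Of 39 alternatives to 10 results, 16 moved the value by less than its counting interval (or a count by less than 1.5 times) and 23 by more. The cause was not tested beyond what each construction changes. The 16 include those that kept only hotspots with under 50% soft-masked bases. These could not change a value, since the highest soft-masked share of any region was 29.6%. A minimum of 3000 bp gave 1427 regions, medians of 6 biosample 1 and 3 biosample 2 peaks, a CpG ratio of 0.550 and 107 listed genes. A minimum of 5000 bp gave 167 regions, 29.3% median cover, 10 biosample 1 peaks, a CpG ratio of 0.469 and 30 listed genes. Joining hotspots at most 150 bp apart gave 896 regions. Asking for at least 50% cover left 32.9% met. The stronger 50% of peaks gave medians of 7 and 3 peaks and 40.6% of peaks inside shared (all peaks 32.4%). Sharing was 42.6% when at least 50% of the peak had to be covered and 41.4% for distal peaks alone (all peaks 29.1% and 28.0%). The promoter share was 90.3% with genes of every type and 69.4% with gene starts alone. AP-1 matches were in 11.4% over 5000 bp from a start site, 6.82% at any distance, 11.3% in windows of 200 bp and 15.2% of distal shared peaks, against 21.1%, 18.1%, 22.0% and 27.6% of all such peaks. Including the left-out segments gave 464 regions. Alternatives on coding-transcript and gene starts, strong-peak regions, distal sharing and AP-1 in shared peaks were chosen after seeing the data. No paired analysis was possible because each biosample has 1 pooled list and no result comes from a test. The unknown depth limits every difference between the biosamples.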

Other observations

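The wide hotspots away from promoters differed among themselves in place and cover. The 16 in introns were all met by biosample 2, with a median of 39.6% of their length covered, and the 50 intergenic ones were met in 47 cases with a median of 35.9%. Of the 8 that met an exon, biosample 2 met 6 and the median was 15.7%. The 152 regions rich in CpG were covered by at least 50% in 57 cases (37.5%, 30.2 to 45.4), and the 282 others in 86 cases (30.5%, 25.4 to 36.1). These intervals overlap and cover counting error only.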
